A study of Mus musculus with 9 samples.

Results

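Dab1 was followed with 8 genes grouped with it under reelin receptor signalling: Reln, Vldlr, Lrp8, Fyn, Crk, Crkl, Pafah1b1 and the Dab1 relative Dab2. Every probe set that the array annotates to a single one of these genes was used, 36 probe sets of 45037 and 9 genes of 18193. Dab1 was chosen by its fold change between Tmem203 null and WT testes in this same comparison. Its null and WT values are therefore given as a description without a test. The other 8 genes were chosen for their place in or beside the pathway. Testis RNA of 5 Tmem203 null and 4 wild-type (WT) samples was hybridised to Affymetrix Mouse Genome arrays, all from C57BL/6J mice 24 weeks of age, with no treatment of mice or tissue. The Tmem203 null allele, made in C57BL/6 embryonic stem cells, lacks the start codon and a short stretch of untranslated leader of Tmem203, which encodes a membrane protein of the endoplasmic reticulum, and keeps a short vector remnant with an FRT site after Flpe removed the neo cassette. The allele is constitutive and is carried by all cells of the testis and of the rest of the body. Whole testes were profiled, so fewer cells of a type and less RNA per cell cannot be told apart. Left and right testes were collected individually and the labels do not tie an array to an animal, so every p-value reflects how far these samples scatter, which may be technical scatter.

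Reelin is a large secreted glycoprotein that binds 2 members of the low density lipoprotein receptor family, the very low density lipoprotein receptor (Vldlr) and apolipoprotein E receptor 2 (Lrp8). The adaptor Dab1 docks on the cytoplasmic tails of both receptors, is phosphorylated on tyrosines by Src family kinases, mainly Fyn in neurons, and then recruits Crk and Crkl, while Lis1 (Pafah1b1) links the pathway to dynein and microtubules. The pathway is best known for placing migrating neurons in the layers of the brain. In the mouse testis Lrp8 is known instead as the receptor through which Sertoli cells take up selenoprotein P, the carrier that supplies selenium for sperm.

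A value below is a log2 signal per probe set, on which 1 unit is a doubling, and a probe set counted as detected when 1 or more arrays reached 5. The array medians lay between 6.96 and 7.05, and precision is limited by how few arrays there are. Tmem203 itself had 9.11 ± 0.03 in null testes and 9.81 ± 0.13 in WT testes (SD, n = 5 and 4; limma adjusted p = 2.87e-04), and every null array lay below every WT array. A signal thus remained in null testes. By sequencing cDNA from lung, the paper found that null mice keep a Tmem203 transcript without the start codon. The sources used here do not say whether this probe set lies within the deletion. In all, 3367 of 45037 probe sets (7.48%) passed an adjusted p under 0.05, 1856 higher and 1511 lower in null testes, and with each array centred on its median the split was 1381 higher and 1884 lower.

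The reelin adaptor Dab1 was lower in null testes on all 5 of its probe sets, by 1.74-fold and 1.88-fold on the 2 probe sets detected on every array. The other 3 differed by 1.55-fold to 6.34-fold, with null means under the detection threshold, so that these folds depend on signals near background. The ligand Reln and the receptor Vldlr differed by at most 0.10 on the log2 scale on their detected probe sets. The receptor Lrp8 and the kinase Fyn were higher in null testes, each on 2 probe sets, by 1.22-fold to 1.27-fold. Of the 26 detected probe sets of the 8 genes other than Dab1, 4 passed the limma test, all 4 of them higher in null testes, and 22 did not; over all 35145 detected probe sets 9.38% passed, 5.2% higher and 4.18% lower. At an unadjusted p under 0.05 there were 12. In 6 of the 26 every null array lay above every WT array, against 7.09% of all detected probe sets, and in 0 every null array lay below, against 7.47% of all detected probe sets. None of the 26 differed by 1.5-fold, and the median of their log2 fold changes was 0.16, against -0.01 over all detected probe sets. The remaining 5 member probe sets stayed under the detection threshold on all arrays.

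**Figure D1:**
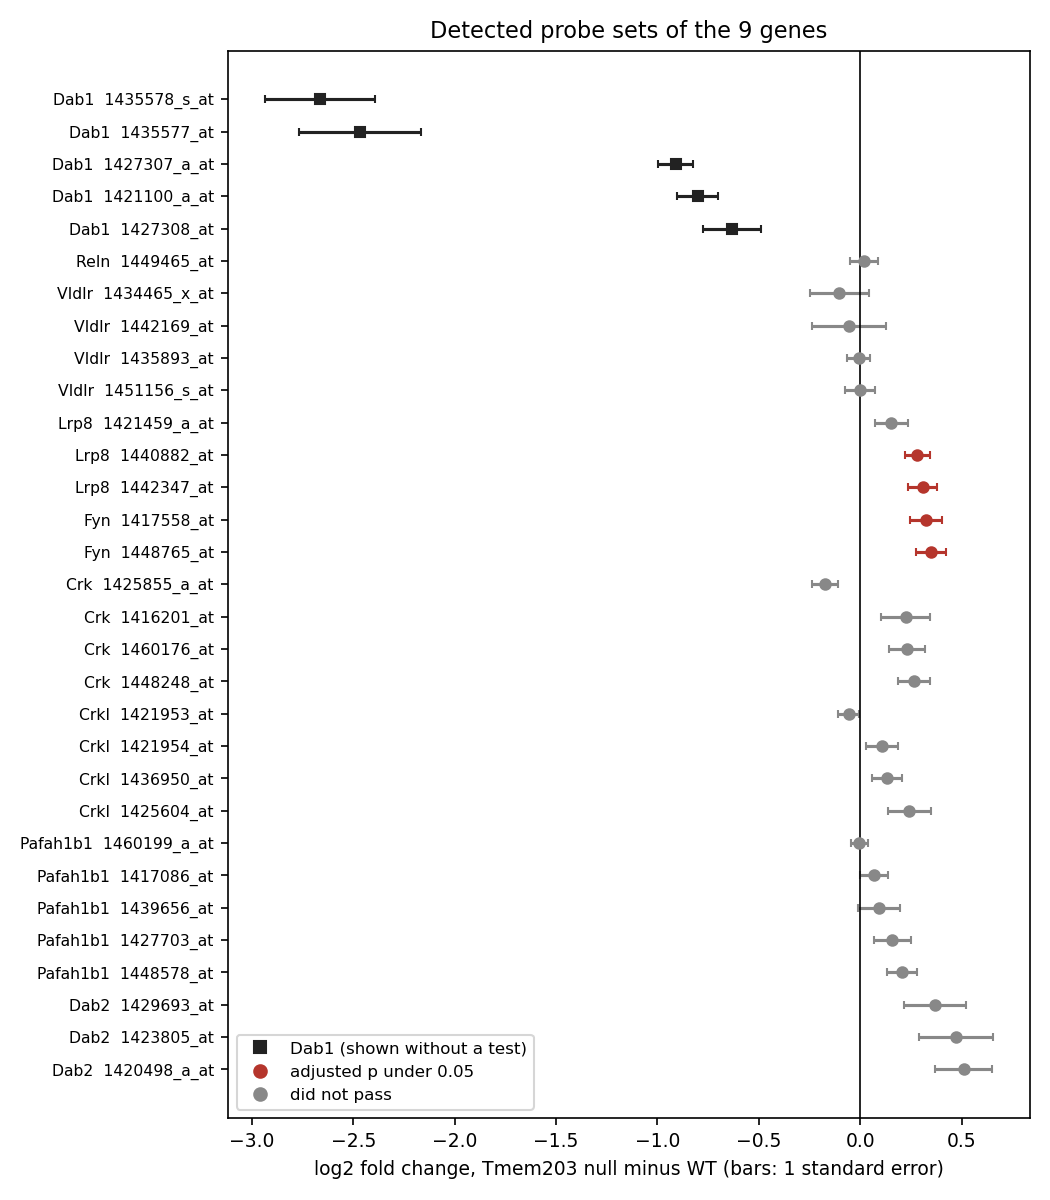
Difference in log2 signal between Tmem203 null and WT testes (x axis) for the detected probe sets of the 9 genes, with bars of 1 standard error; squares are Dab1, shown without a test, and red points passed an adjusted p under 0.05. The 5 Dab1 probe sets lie between -2.66 and -0.63, and the other 26 lie between -0.17 and 0.51.

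Reln, the ligand, was measured by 1449465_at. It gave 8.90, 9.07, 8.79, 8.83 and 9.0 in null replicates 1 to 5, against 8.80, 8.94, 8.90 and 8.97 in WT replicates 1 to 4. The groups overlapped over most of their range, and the difference was 0.02 (95% interval -0.14 to 0.17; limma adjusted p = 0.917), a value that turned to -0.02 with each array centred on its median. The other Reln probe set, 1458020_at, lay between 3.36 and 3.61 in null testes and between 3.29 and 3.69 in WT testes, below detection throughout.

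Vldlr, the receptor that mainly stops migrating neurons at their place in the mouse cortex, had 6 probe sets, 4 of them detected. The one with the highest signal, 1434465_x_at, gave 6.96, 7.15, 7.41, 6.94 and 6.82 in null testes, against 6.95, 7.07, 7.58 and 7.04 in WT testes. By its suffix this probe set can match several transcripts, so its signal may not come from Vldlr alone. Replicate 3 was the highest array of each genotype and the groups overlapped (difference -0.10, 95% interval -0.43 to 0.22; limma adjusted p = 0.719). The other 3 detected probe sets stood close to the detection threshold and differed by -0.05 to -0.00. One of them, 1442169_at, counted as detected only through WT replicate 3, with 5.19. Each of the 4 changed sign under at least 1 other setting or with an array left out, and 0 of them passed in any fit.

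Lrp8, the receptor that shares reelin with Vldlr and binds selenoprotein P in the testis, had 3 probe sets, all detected on every array. On 1440882_at the signals were 11.18, 11.25, 11.25, 11.19 and 11.35 in null testes, against 11.04, 10.92, 10.84 and 11.04 in WT testes. All 5 null arrays lay above all 4 WT arrays, and the difference of 0.28 ± 0.06 (SE) passed (limma adjusted p = 0.022). On 1442347_at they were 10.16, 9.92, 10.00, 10.05 and 10.04 in null testes, against 9.72, 9.55, 9.77 and 9.86 in WT testes. The groups did not overlap here either, although null replicate 2 and WT replicate 4 came close to each other, and the difference was 0.31 ± 0.07 (SE; limma adjusted p = 0.0289). On 1421459_a_at the null testes gave 8.10, 8.10, 8.19, 8.14 and 8.33, and the WT testes gave 8.18, 8.10, 7.83 and 7.96. These overlapped, since WT replicates 3 and 4 were low and WT replicates 1 and 2 stood within the null range, and the difference of 0.15 ± 0.08 did not pass (limma adjusted p = 0.288). The calls were narrow: 1440882_at had an adjusted p of 0.0561 without null replicate 5, 0.0524 without null replicate 3 and 0.0648 without WT replicate 2, and 1442347_at passed in 3 of 9 fits with an array left out and had 0.0516 with each array centred on its median.

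Dab1 lies on chromosome 4, and RefSeq places 2 transcription starts for it 748 kb apart. Both start windows are shown because the probe sets of the gene differed by unlike amounts between genotypes; which transcript each probe set reads is not known here. Each window runs from 250 bases before to 50 bases after a start (RefSeq, GRCm38.p6, plus strand), in lower case with CpG dinucleotides in capitals, the upstream one at chr4:103619250-103619549 and the downstream one at chr4:104367288-104367587.
Dab1 upstream start: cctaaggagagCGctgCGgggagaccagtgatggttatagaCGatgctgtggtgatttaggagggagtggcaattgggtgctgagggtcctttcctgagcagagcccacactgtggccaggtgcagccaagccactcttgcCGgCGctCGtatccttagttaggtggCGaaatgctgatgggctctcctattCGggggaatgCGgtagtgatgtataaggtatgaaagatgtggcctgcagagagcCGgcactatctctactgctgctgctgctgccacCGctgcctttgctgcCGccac
Dab1 downstream start: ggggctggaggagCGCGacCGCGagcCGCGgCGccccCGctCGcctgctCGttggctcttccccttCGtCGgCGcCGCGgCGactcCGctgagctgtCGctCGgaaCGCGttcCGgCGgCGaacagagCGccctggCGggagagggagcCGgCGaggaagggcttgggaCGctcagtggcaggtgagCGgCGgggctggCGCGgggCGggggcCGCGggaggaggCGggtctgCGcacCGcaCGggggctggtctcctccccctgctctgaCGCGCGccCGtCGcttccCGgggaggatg
The upstream window holds 12 CpG at a GC content of 57.3% and the downstream window 46 CpG at 77.3%, against medians of 7 CpG and 52.7% over 32851 start windows of the same length. A set of 5 short motifs was searched on both strands: TGACGTCA (the cAMP response element, in 1.79% of all windows), GGGCGG (the GC box, in 35.7%), TATAAA (the TATA box, in 13.6%), GGAAAA (the core of NFAT sites, in 23.4%) and CACGTG (an E-box, in 7.15%). The downstream window holds 1 GC box and the upstream window holds none of the 5. None of the 5 contains another. A match is a description of the letters and not a site.

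Dab1, the adaptor itself, had its highest WT signals on 2 probe sets designed from the same sequence record, 1435578_s_at and 1435577_at. By its suffix 1435578_s_at can match several transcripts, as can 1427307_a_at and 1421100_a_at below, while 1435577_at carries no such suffix. On 1435578_s_at the null testes gave 4.73, 4.46, 5.13, 5.42 and 4.88, and the WT testes gave 7.76, 6.86, 7.42 and 8.31. All 5 null arrays lay below all 4 WT arrays with 1.44 between the nearest of them, and the means of 4.92 ± 0.37 in null testes and 7.59 ± 0.61 in WT testes (SD, n = 5 and 4) are 6.34-fold apart (log2 fold change -2.66). On 1435577_at the null testes gave 4.20, 4.80, 5.04, 5.56 and 4.90, and the WT testes gave 7.57, 6.59, 7.27 and 8.04. Here too the genotypes stood apart, with means of 4.90 ± 0.49 in null testes and 7.37 ± 0.61 in WT testes, 5.53-fold apart (log2 fold change -2.47). On each of these probe sets 3 of 5 null arrays were under the detection threshold while all 4 WT arrays were above it, so these folds rest on null signals around the threshold. They had the 2 lowest log2 fold changes among all 35145 detected probe sets and were the only 2 that were at least 4-fold lower, which is 0.00569% of them; since Dab1 was chosen for this, nothing is read from the rank.

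Smaller differences were measured by the other 3 Dab1 probe sets. On 1427307_a_at the null testes gave 5.97, 5.76, 5.99, 5.67 and 5.87, and the WT testes gave 6.84, 6.57, 6.86 and 6.78. On 1421100_a_at the null testes gave 5.55, 5.80, 5.83, 5.49 and 5.89, and the WT testes gave 6.36, 6.66, 6.62 and 6.42. Both were detected on all 9 arrays, and on both the genotypes did not overlap, with differences of -0.91 (1.88-fold) on 1427307_a_at and -0.80 (1.74-fold) on 1421100_a_at. The last, 1427308_at, was designed from the same sequence record as 1427307_a_at and gave 4.01, 3.97, 4.21, 4.38 and 4.22 in null testes, against 4.87, 4.32, 5.03 and 4.94 in WT testes. It counted as detected only through WT replicate 3, and its genotypes overlapped because WT replicate 2 lay below null replicate 4 (difference -0.63). In all, 4 of 5 Dab1 probe sets had every null array below every WT array, against 7.47% of detected probe sets, and 5 of 5 were at least 1.5-fold lower, against 0.848%. Dab1 was chosen by its fold change in this same contrast, on which both counts depend, so nothing is read from them.

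The Dab1 probe sets also ordered the arrays differently within a genotype. Null replicate 4 was the highest null array on 1435578_s_at, 1435577_at and 1427308_at, and the lowest null array on 1427307_a_at and 1421100_a_at. WT replicate 2 was the lowest WT array on all probe sets but 1421100_a_at, where it was the highest. After the mean of each genotype was taken off, the signals over the 9 arrays correlated with r = 0.89 between 1435577_at and 1435578_s_at and r = 0.79 between 1427308_at and 1435577_at. Between 1421100_a_at and 1435578_s_at r was -0.56, and between 1421100_a_at and 1427307_a_at it was 0.01. These points share their arrays and are given as a description. Averaged over the 5 probe sets, Dab1 stood at 4.89, 4.96, 5.24, 5.30 and 5.15 in null replicates 1 to 5, against 6.68, 6.20, 6.64 and 6.90 in WT replicates 1 to 4, so that 0.90 separated the highest null array from the lowest WT array.

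**Figure D2:**
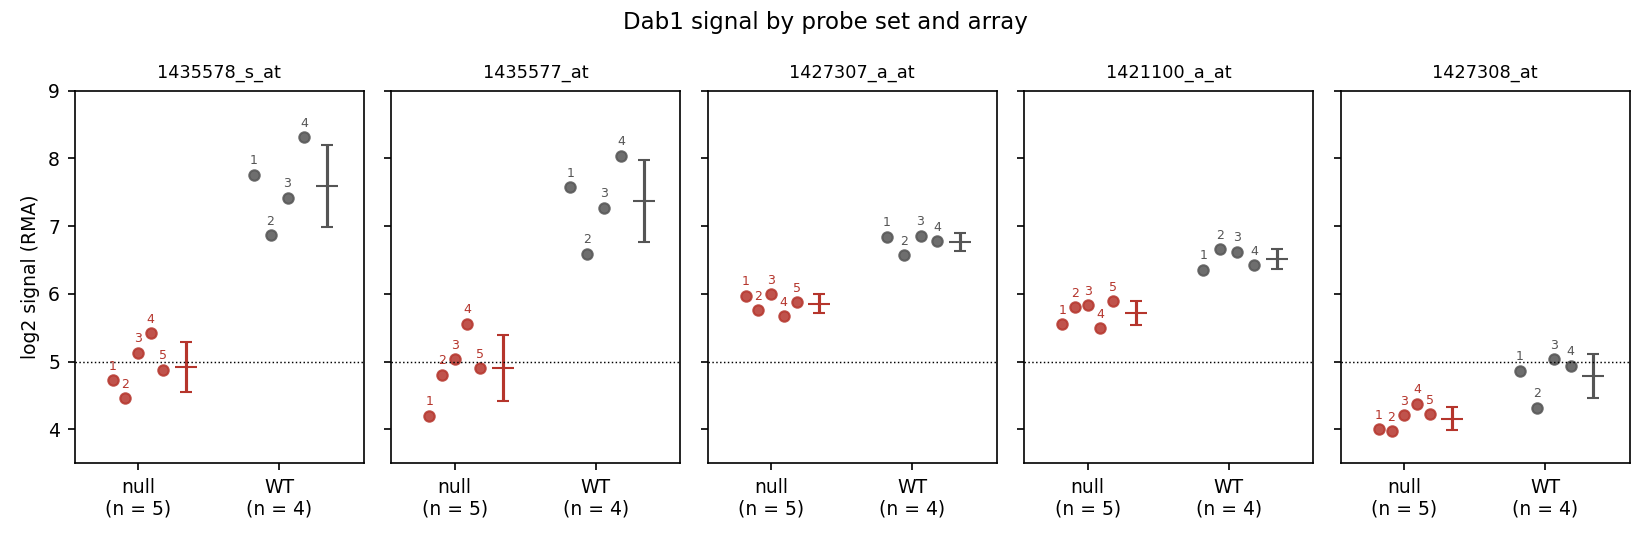
Log2 signal (y axis) of the 5 Dab1 probe sets on each array, Tmem203 null in red and WT in grey, numbered by replicate, with mean and SD drawn to the right and the detection threshold of 5 dotted. On 1435578_s_at and 1435577_at the null arrays lie around the threshold and the WT arrays between 6.59 and 8.31, while on 1427307_a_at and 1421100_a_at the genotypes stand less than 1 unit apart.

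The levels of other cells and of RNA quality stood beside the Dab1 difference as follows. Markers of elongating spermatids averaged 14.07 to 14.12 in null testes and 14.10 to 14.12 in WT testes, with 0 of 10 passing the test. Several of them stood close to the highest signal of the data, 14.79, such as Prm1 (14.66 in null, 14.68 in WT testes) and Prm2 (14.66 and 14.65). Others of the list stood further below it and did not pass either, such as Prm3 (12.90 in null, 12.99 in WT testes) and Gapdhs (13.77 and 13.76). Whether signals near the top register a loss of cells was not tested. By DNA staining, the paper reported fewer condensed haploid cells in null testes at a later age, and no difference in young mice. It described the fall in late spermatids as subtle by light microscopy of older mice, and as severe in its summary. Markers of round spermatids averaged 12.65 to 12.71 in null testes and 12.70 to 12.76 in WT testes, with 0 of 10 passing. Markers of spermatocytes averaged 12.28 to 12.34 in null testes and 12.34 to 12.43 in WT testes, with 1 of 10 passing, lower in null testes. Markers of neurons, the cells in which Dab1 is best known, averaged 6.64 to 6.72 in null testes and 6.62 to 6.70 in WT testes, with 1 of 7 passing (Tubb3, a tubulin that other cells also make, higher in null testes). Among all 16180 detected genes, by the probe set of highest mean signal, 11.8% passed. The difference between the 3′ and 5′ control probe sets of Gapdh, a measure of RNA degradation, was 0.85 ± 0.04 in null testes and 0.93 ± 0.01 in WT testes (SD, n = 5 and 4; two-sided exact permutation test, p = 0.0238), and that of beta-actin was 0.58 ± 0.04 in null testes and 0.60 ± 0.04 in WT testes (two-sided exact permutation test, p = 0.341). The part of any of these in the Dab1 difference was not tested.

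Fyn, the Src family kinase that phosphorylates Dab1 in neurons, had 2 probe sets, and both passed. On 1448765_at the null testes gave 11.45, 11.29, 11.49, 11.47 and 11.53, and the WT testes gave 11.17, 10.92, 11.07 and 11.22. All null arrays lay above all WT arrays, null replicate 2 being the lowest of the null arrays, and the difference was 0.35 ± 0.07 (SE; limma adjusted p = 0.0192). On 1417558_at the null testes gave 10.01, 9.64, 9.79, 9.73 and 9.86, and the WT testes gave 9.47, 9.53, 9.59 and 9.36. The groups again did not overlap, with 0.05 between the nearest arrays, and the difference was 0.32 ± 0.08 (SE; limma adjusted p = 0.0356). The call on 1448765_at held in 8 of 9 fits with an array left out and was lost without null replicate 5 (adjusted p = 0.0528), and that on 1417558_at held in 2 of 9.

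**Figure D3:**
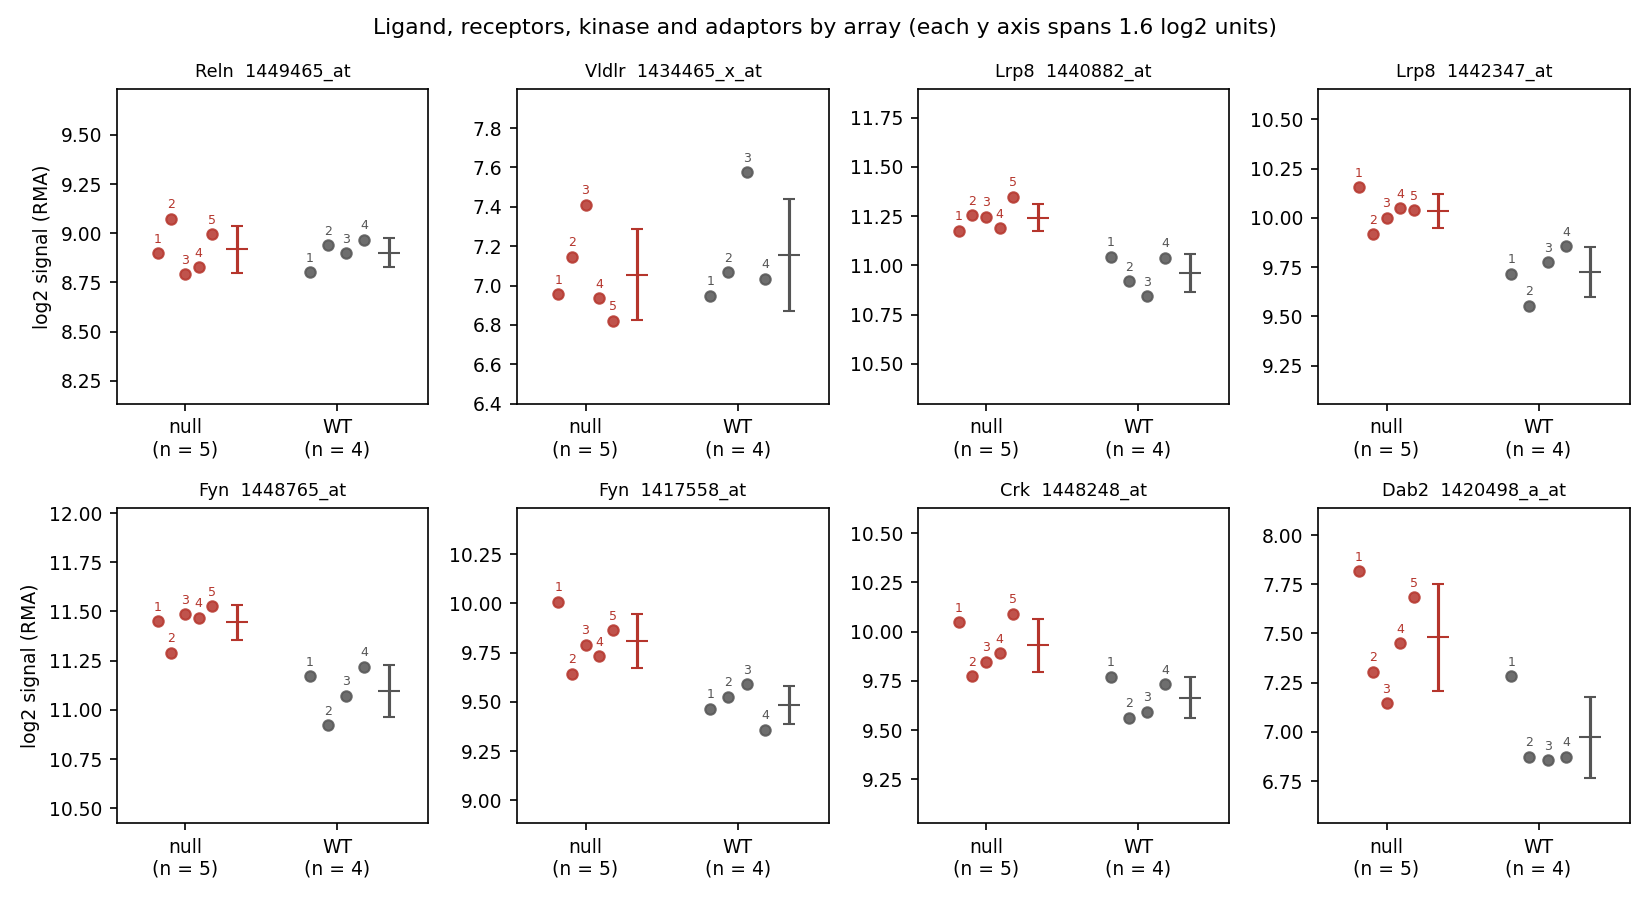
Log2 signal (y axis, each spanning 1.6 units) of 8 member probe sets on each array, Tmem203 null in red and WT in grey, numbered by replicate, with mean and SD drawn to the right. Drawn are the Lrp8 and Fyn probe sets that passed, the widest difference of Crk and of Dab2, and the highest signal of Reln and of Vldlr. The genotypes overlap for Reln, Vldlr and Dab2. Every null array lies above every WT array on the Lrp8, Fyn and Crk probe sets drawn. On Lrp8 1421459_a_at and the other detected Crk probe sets, which are not drawn, the genotypes overlap, and Crk 1425855_a_at is lower in null testes (-0.17).

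Crk, an adaptor that binds phosphorylated Dab1 and passes the signal to the exchange factor Rapgef1, had 5 probe sets, of which 4 were detected and 0 passed. Its widest difference was on 1448248_at, with 10.05, 9.77, 9.85, 9.89 and 10.09 in null testes and 9.77, 9.56, 9.59 and 9.73 in WT testes. The genotypes did not overlap there, although null replicate 2 and WT replicate 1 were almost equal, and the difference of 0.27 ± 0.08 (SE) did not pass (limma adjusted p = 0.0716), although it did with a trend in the prior variance (0.0487). The other 2 probe sets from the same sequence record differed by 0.22 on 1416201_at, which passed without null replicate 2 (limma adjusted p = 0.0258), and by 0.23, and 1425855_a_at differed by -0.17 (limma adjusted p = 0.144). Crkl, the close relative of Crk, had 4 detected probe sets with differences between -0.06 and 0.24, of which 0 passed (limma adjusted p between 0.197 and 0.552). The widest of the 4 counted as detected through 4 null arrays and 0 WT arrays.

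Pafah1b1, which encodes Lis1, a regulator of dynein, had 5 detected probe sets with differences between -0.00 and 0.20, of which 0 passed. The widest was 1448578_at, with 10.93, 11.02, 10.90, 10.91 and 10.93 in null testes, against 10.89, 10.54, 10.68 and 10.85 in WT testes (limma adjusted p = 0.13). Every null array lay just above the highest WT array there, and the WT arrays were more spread. On the probe set of highest signal, 1460199_a_at, both genotypes stood at 12.9 to 13.0 on every array (difference -0.00, 95% interval -0.10 to 0.09).

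Dab2, a relative of Dab1 that works as a clathrin adaptor for receptors of the low density lipoprotein family and not in reelin signalling proper, had the widest differences of the 8 genes. On 1420498_a_at the null testes gave 7.82, 7.31, 7.15, 7.45 and 7.68, and the WT testes gave 7.28, 6.87, 6.86 and 6.87. WT replicate 1 lay within the null range and the other 3 WT arrays below it, and the difference of 0.51 ± 0.14 (SE; 1.42-fold) did not pass (limma adjusted p = 0.0582). It did pass without WT replicate 1 (0.0353) and without null replicate 3 (0.0379), and in the fit on detected probe sets alone (0.0486). On 1423805_at the null testes gave 8.57, 8.02, 8.08, 8.01 and 8.55, and the WT testes gave 8.18, 7.30, 7.82 and 7.78. Null replicates 1 and 5 and WT replicate 1 were the high arrays, and the difference was 0.47 (limma adjusted p = 0.151). The third detected probe set, 1429693_at, differed by 0.37 (limma adjusted p = 0.178), and 1430604_a_at was not detected.

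The wider pathway was read from 95 listed genes, of which 86 were measured by a detected single-gene probe set, the one of highest mean signal per gene. Of the 86, 13 passed the limma test (15.1%), 12 higher and 1 lower in null testes, and 73 did not; over 16180 detected genes 11.8% passed, 6.5% higher and 5.32% lower. The median log2 fold change was 0.08 over the list and -0.01 over all genes. Of the 12 rises 6 stood among receptors and ligands, where 6 of 15 genes passed higher and 0 passed lower. Efnb2, whose probe sets disagree in direction, is among these 6. The genes that passed were 0 of 5 among the kinases that phosphorylate Dab1 or their partners, 0 of 13 among dynein and microtubule partners of Lis1 and 0 of 9 among genes of Dab1 turnover.

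Among the alternative receptors and ligands, Aplp1, a relative of the amyloid precursor protein, showed the widest difference. It gave 9.91, 10.13, 9.83, 9.83 and 9.72 in null testes, against 8.86, 9.04, 8.84 and 8.98 in WT testes. The gap between the nearest arrays was 0.68, the difference was 0.96 ± 0.08 (SE; limma adjusted p = 2.14e-04), and its other detected probe set also passed, at 0.77. Lrp4, a receptor of the same family that binds agrin at the nerve-muscle synapse, differed by 0.62 ± 0.13 (SE; limma adjusted p = 0.0209), with null arrays at 7.81, 7.75, 7.30, 7.25 and 7.51 and WT arrays at 7.16, 6.75, 6.79 and 6.94. Lrp1, the large scavenger receptor of the family, gave 9.13, 8.88, 8.85, 8.93 and 9.04 in null testes, against 8.74, 8.56, 8.26 and 8.57 in WT testes (difference 0.43 ± 0.10, SE; limma adjusted p = 0.0252), while its other detected probe set differed by 0.06 and did not pass. On the probe sets given for these 3 genes all null arrays lay above all WT arrays. Efnb2, a ligand of Eph receptors (0.53), and Nrp1, a receptor for semaphorins and vascular endothelial growth factor (0.46), also passed on the probe set of highest signal (limma adjusted p = 0.0322 for Efnb2 and 0.00771 for Nrp1). The other 3 detected probe sets of Efnb2 ran between -0.36 and 0.38, and the 1 of them that passed was lower in null testes (-0.36; limma adjusted p = 0.0474), so no direction is given for Efnb2 as a whole. The other 3 of Nrp1 ran between 0.15 and 0.52, and 1 passed. Clu, which encodes clusterin, a ligand of the reelin receptors and one of the markers of Sertoli cells used here, differed by 0.18 (limma adjusted p = 0.0354). Lrp2, the endocytic receptor megalin, had -0.43 and Apoe, a ligand of the receptors, 0.41, and neither passed.

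Of the kinases, Src gave a difference of 0.01, Cdk5, which phosphorylates Dab1 on serine, 0.08, and its activator p35 (Cdk5r1) 0.00 on the probe set of highest signal. Another Cdk5r1 probe set, 1421123_at, gave 3.89, 3.85, 4.13, 3.78 and 3.82 in null testes, against 5.08, 4.44, 4.57 and 4.67 in WT testes. It counted as detected through WT replicate 1 alone, with both genotype means under the threshold, so its difference of -0.80 is given as a value only. The other 3 detected probe sets differed by -0.07, 0.02 and 0.00 and did not pass.

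Downstream of Dab1, 4 of 23 genes passed. Grb2, an adaptor to Ras, differed by 0.42, Wasl, which starts actin branching, by 0.29 and Nck2, an adaptor that binds phosphorylated Dab1 in its Nck family, by 0.28, all higher in null testes on the probe set of highest signal (limma adjusted p = 0.0138 for Grb2, 0.0162 for Wasl and 0.0145 for Nck2). The other detected probe set did not pass for Grb2 (-0.02) or for Nck2 (-0.02), and of the other 3 of Wasl, which ran between -0.11 and 0.31, 1 passed, also higher. Gsk3b, the kinase that Akt inhibits in this pathway, was the 1 lower gene. On 1451020_at it gave 12.04, 12.04, 12.05, 12.10 and 12.12 in null testes, against 12.37, 12.51, 12.38 and 12.34 in WT testes (difference -0.33 ± 0.05, SE; limma adjusted p = 0.00491). Its other 5 detected probe sets differed the other way, by 0.09 to 0.37. Of these 1437001_at passed, with 10.35, 10.15, 10.31, 10.41 and 10.39 in null testes and 10.05, 9.93, 9.86 and 10.16 in WT testes (difference 0.32; limma adjusted p = 0.0338). A direction for the gene as a whole therefore could not be given.

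**Figure D4:**
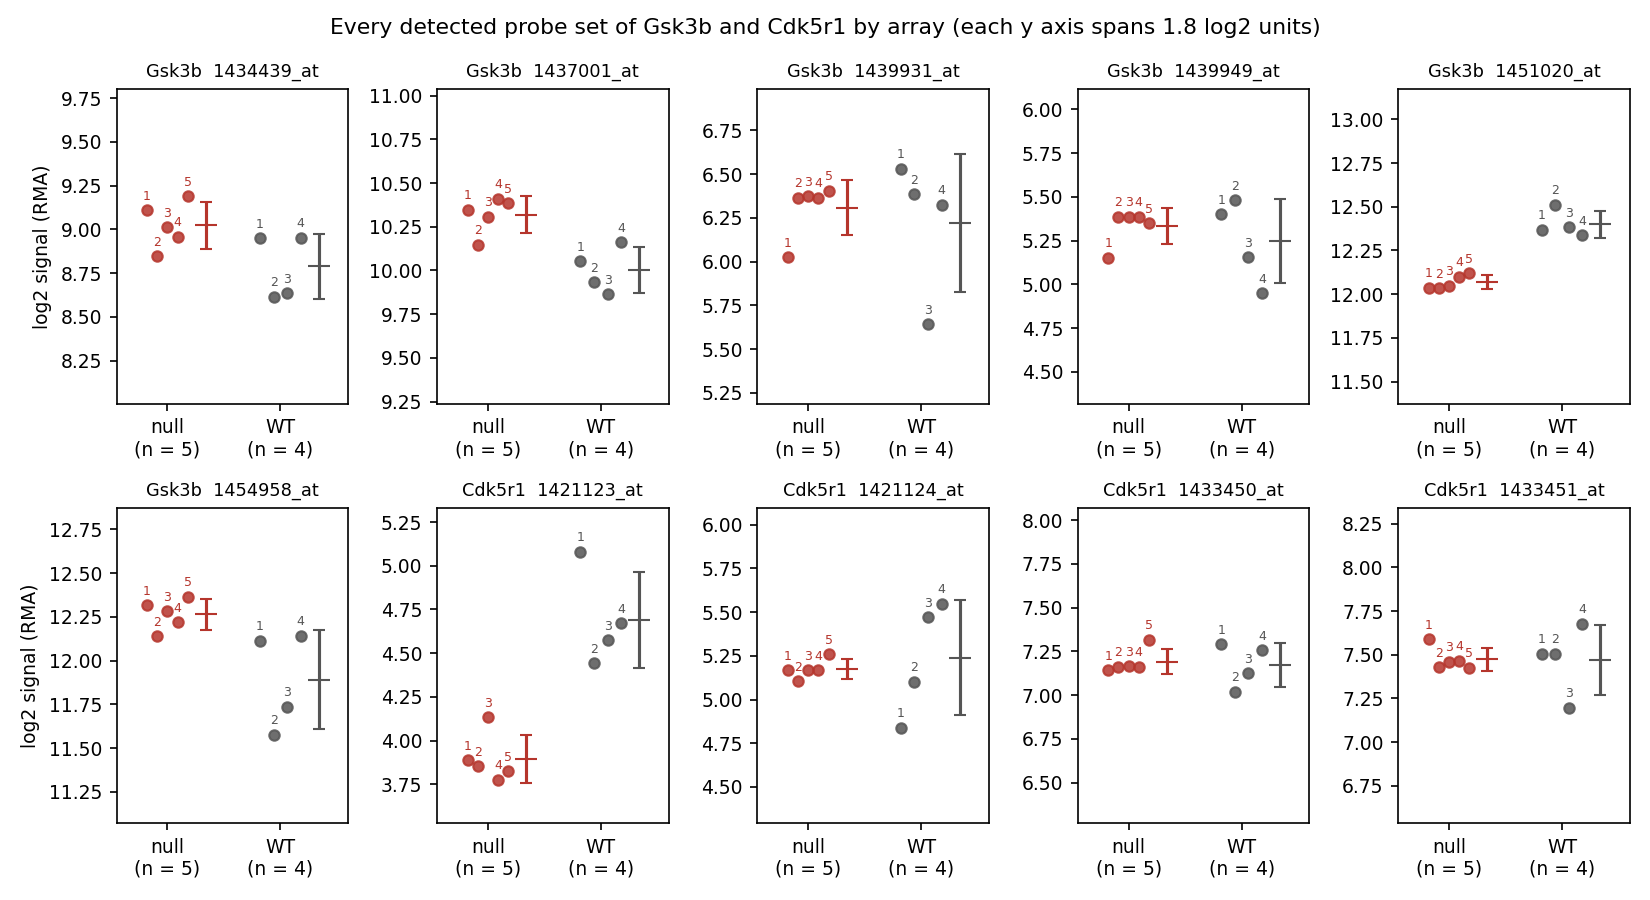
Log2 signal (y axis, each spanning 1.8 units) of every detected probe set of Gsk3b and Cdk5r1 on each array, Tmem203 null in red and WT in grey, numbered by replicate, with mean and SD drawn to the right. For each gene a single probe set has all null arrays below all WT arrays, 1451020_at for Gsk3b and 1421123_at for Cdk5r1, and the others overlap or lie higher in null testes.

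In the remaining lists, genes of Dab1 turnover, which mark phosphorylated Dab1 for degradation, did not pass on the probe set of highest signal. Socs6 and Socs7, which recruit it, differed by -0.03 and 0.09. Cul5, the scaffold of the ubiquitin ligase, differed by -0.21 (limma adjusted p = 0.0728) with all null arrays below all WT arrays. The other 2 detected probe sets of Cul5 differed by -0.21 and 0.27, so no direction is given for it. Those of Socs6 differed by 0.24 and 0.25, and the other 3 of Socs7 ran between -0.06 and 0.12. None of these other probe sets passed. Of the genes of Dab2 and receptor endocytosis 1 of 14 passed, Myo6, the motor that Dab2 couples to endocytic vesicles. It gave 9.76, 9.79, 9.78, 9.98 and 10.00 in null testes, against 9.41, 9.07, 9.42 and 9.44 in WT testes (difference 0.53 ± 0.09, SE; limma adjusted p = 0.00745). Of the proteases that cut reelin or free them 2 of 7 passed, Adamts5, an aggrecanase (0.40; limma adjusted p = 0.00614), and Furin, a proprotein convertase (0.22; limma adjusted p = 0.0338), both higher in null testes.

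**Figure D5:**
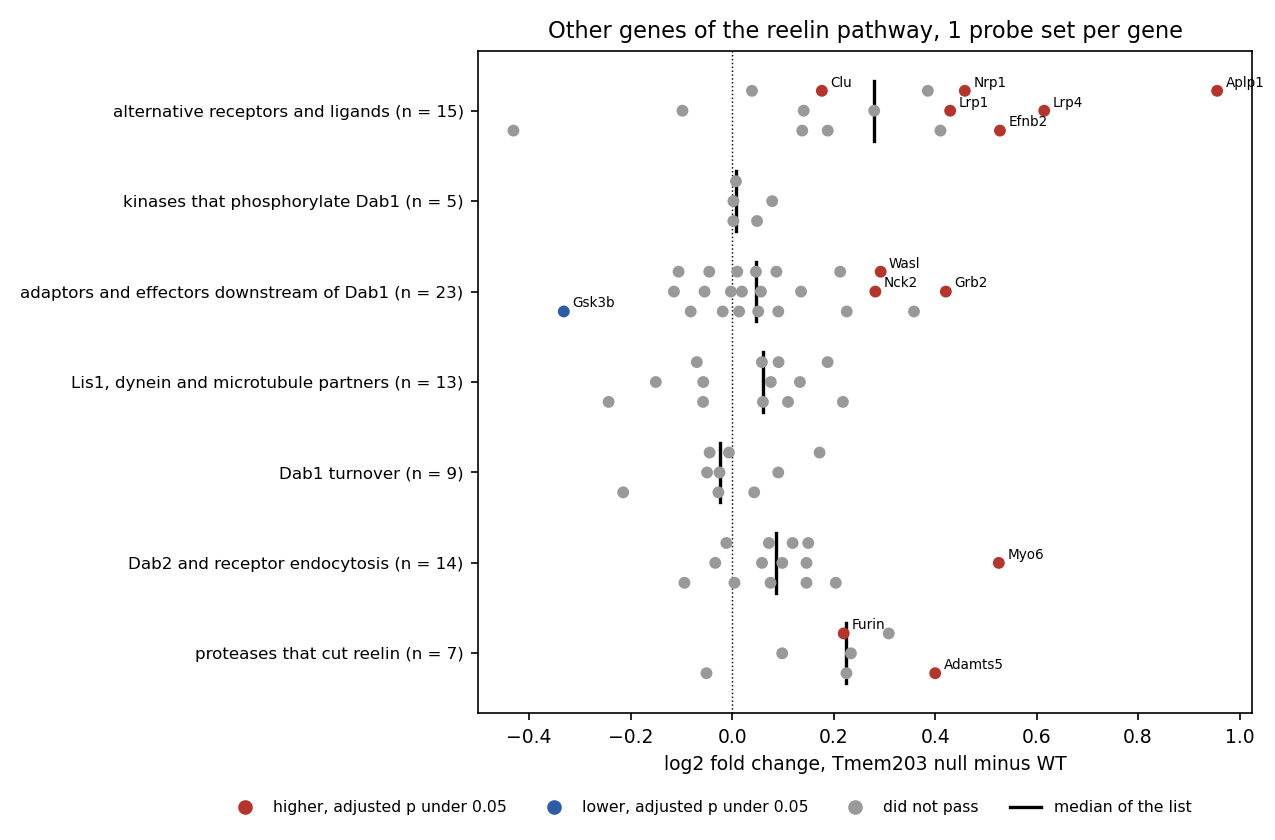
Difference in log2 signal between Tmem203 null and WT testes (x axis) for the 86 measured genes of the wider pathway, by list, 1 probe set per gene, with the median of each list as a bar; genes past the adjusted p threshold of 0.05 are red where higher and blue where lower. The points that passed lie mostly to the right, 12 higher and 1 lower, Gsk3b at -0.33.

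Markers of Sertoli cells, and some of those of Leydig cells, were also higher in null testes, beside the rises of Lrp8, Fyn and the receptors. Over all 16180 detected genes, read the same way, 11.8% passed, 6.5% higher and 5.32% lower. The mean over 11 measured Sertoli cell markers lay at 10.07 to 10.17 in null testes and at 9.74 to 9.90 in WT testes, and 7 of the 11 passed, all higher, among them Sox9 (0.38), Wt1 (0.26) and Gata4 (0.34), while Amh was at 5.50 in null testes and 5.51 in WT testes. The mean over 7 Leydig cell markers lay at 11.45 to 11.71 in null testes and at 11.09 to 11.54 in WT testes, with 3 of 7 passing, all higher. For macrophages the means were 9.07 to 9.31 in null testes and 8.69 to 9.14 in WT testes, with 1 of 9 passing, higher. Peritubular myoid cells (10.18 to 10.40 in null testes, 10.09 to 10.46 in WT testes) and endothelium (6.83 to 6.99 in null testes, 6.70 to 6.90 in WT testes) had 0 of 8 and 1 of 8 passing, that 1 lower. Spermatogonia lay at 9.65 to 9.76 in null testes and 9.45 to 9.69 in WT testes, with 1 of 9 higher and 1 lower, and 3 measured epididymis markers, 0 of which passed, lay at 5.21 to 5.65 in null testes and 5.33 to 5.61 in WT testes. The part of these cells in the rises was not tested.

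The genes whose signal followed the mean of the 5 Dab1 probe sets most closely over the 9 arrays were Pdap1, D7Ertd443e, Ifrd2, Snx29, Calml4 and Cacng5, each with a Pearson r of 0.98. All 6 had every null array below every WT array, with log2 fold changes of -0.35 for Pdap1, -0.53 for D7Ertd443e, -1.41 for Ifrd2, -0.70 for Snx29, -1.30 for Calml4 and -0.83 for Cacng5, in the same contrast that chose Dab1. With the mean of each genotype taken off, the 6 closest were Ptbp2 (0.98), Nxt2 (0.97), Foxn1 (0.97), Gdi2 (0.95), Uba6 (0.94) and Lsm14b (0.94). None of these 6 was among the first 6, and their genotypes overlapped, with differences between -0.03 and 0.20. Both sets of 6 hold the highest r from a search of every detected single-gene probe set outside the members. With 9 arrays, values this high can come from such a search alone, so nothing is read from them. The 5 Dab1 probe sets in the mean also disagreed within a genotype, with r down to -0.56.

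None of the measured neighbours of Dab1 on chromosome 4 passed the limma test. On one side 4921539E11Rik differed by 0.06, 4930456L15Rik by 0.01 and Oma1, a mitochondrial protease, by 0.09. On the other side C8b and C8a, which encode chains of complement component 8, differed by -0.12 (limma adjusted p = 0.241) and -0.34 (limma adjusted p = 0.0934), and Prkaa2, a catalytic subunit of AMP-activated protein kinase, by -0.03 and 0.21 on its 2 detected probe sets. On the C8b probe set every null array, at 11.31 to 11.48, lay below every WT array, at 11.48 to 11.62.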

How the data were processed

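Total RNA of 5 Tmem203 null and 4 WT testis samples was read on Affymetrix Mouse Genome arrays with 1 colour. The authors deposited a log2 signal for each probe set, made by Robust Multichip Average (background adjustment, quantile normalization and summarization) after a quality check of the arrays; the submitters' processing notes name limma, without a version. Scan dates were not used here, so batches were not tested.

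Null and WT arrays were set against each other, probe set by probe set, by limma 3.58.1 (R 4.3.3; lmFit and eBayes) with Benjamini-Hochberg adjustment over 45037 probe sets, with 64 control probe sets left out. The thresholds of the methods were used: an adjusted p under 0.05 and, for detection, a signal of 32 (log2 of 5). A change of 1.5-fold was counted apart. Symbols came from the platform annotation, updated through Entrez identifiers to RefSeq (GRCm38.p6) for 34741 of 34945 single-gene probe sets; 932 probe sets had several genes and 9160 none. Start windows are RefSeq sequences, and all 9 genes had 1 or more. The members, gene lists and tests were chosen with earlier results of these data known. Every member probe set was named; from the pathway list, up to 12 genes that passed with the smallest p were to be named and all 13 were, Lrp1 among them, together with Cdk5, Cdk5r1, Src, Socs6, Socs7 and Cul5, and Lrp2, Apoe, Sox9, Wt1, Gata4, Amh and Tubb3 were added after their values were seen. Listed pathway genes beyond the 86 measured ones were not analysed here. The procedure was tested on simulated data before use. Alternatives covered scaling, the variance model, array weights, the filters, a block for the replicate number, leaving out each array and the methods' t-test. That t-test is the one the paper names for its statistics in general, whereas its authors analysed the arrays by limma. Python 3.11.15 was used for sequences and drawing.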

Additional observations from a re-analysis of the deposited data

Results flagged for a closer look

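Of 100 groups checked (50 probe sets in each genotype), 7 held an array far from the others of its genotype by Dixon's ratio, and chance gives about 5% of groups. Dab2 1420498_a_at was high in WT replicate 1, at 7.28 against 6.87 for the nearest WT array, and its difference between genotypes passed the test without that array. Crkl 1421954_at was low in WT replicate 2, at 6.82 against 7.10 for the nearest. Pafah1b1 1448578_at was high in null replicate 2, at 11.02 against 10.93 for the nearest. Cdk5r1 1433451_at was high in null replicate 1, at 7.59 against 7.47 for the nearest. Wasl 1452193_a_at was high in null replicate 1, at 12.55 against 12.46 for the nearest. Myo6 1433942_at was low in WT replicate 2, at 9.07 against 9.41 for the nearest. Adamts5 1456404_at was high in null replicate 3, at 8.98 against 8.85 for the nearest. None of the 7 is a Dab1 probe set.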

How the results depend on the processing

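The mean Dab1 log2 fold change over 5 probe sets was -1.49. It was -0.91 as the median over probe sets and -0.86 over the 2 detected on every array, and with each array left out it ran between -1.72 (without WT replicate 3, when 4 probe sets stay detected) and -1.40. The 4 passed probe sets of the other members became 2 with each array centred on its median, 2 under the methods' t-test with Benjamini-Hochberg adjustment and 0 with a change of at least 1.5-fold, and ran between 0 (without null replicate 5) and 5 with each array left out. The 13 passed pathway genes became 2 with at least 1.5-fold as well, and ran between 8 (without WT replicate 2) and 16 with each array left out. The 3367 passed probe sets became 2058 under the methods' t-test with that adjustment, and ran between 1925 (without null replicate 5) and 3603. At that test's own unadjusted threshold, added after seeing the data, the counts were 4, 16 and 4399.

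With the replicate number as a block, the passed counts were 1 for the other members (Dab2 1420498_a_at, adjusted p = 0.0347), 6 for the pathway and 1174 for all probe sets. Whether the numbers pair the samples is not known. Deviations of arrays with the same number correlated with r between -0.06 and 0.08, and 1 of 4 WT arrays correlated best with its own number. So few pairs cannot exclude pairing. Over the 26 detected probe sets of the other members, replicate 1 was most often the highest array of its genotype (9 in null, 12 in WT testes). Replicate 2 was most often the lowest in null testes (10), and replicates 2 and 3 in WT testes (9 each). The sign of a difference changed in 26 of 527 values of single probe sets, all of Reln, Vldlr or Pafah1b1, with an adjusted p of at least 0.578; no probe set that passed changed sign. Signals around the detection threshold limit 3 of 5 Dab1 probe sets.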
